A study of Mus musculus with 2 samples.

Results

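The nuclear genes of oxidative phosphorylation were examined for open promoters in erythroblasts of the mouse, the stage of red cell formation that still has a nucleus. Members were the protein-coding genes on chromosomes 1 to 19 and X of the GENCODE M21 annotation whose symbol starts with Nduf, Uqcr, Cox4, Cox5, Cox6, Cox7, Cox8 or Atp5, with the 4 genes Sdha, Sdhb, Sdhc and Sdhd. The rule found 94 gene records of 21755, with 93 symbols, since 2 records are named Atp5o. It took in 84 subunit genes and close paralogs, 9 genes for assembly or coupling factors (Ndufaf1 to Ndufaf8 and Atp5s) and 1 read-through record.

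Oxidative phosphorylation runs on 5 protein complexes of the inner mitochondrial membrane. Complex I takes electrons from NADH and complex II from succinate, coenzyme Q carries them to complex III, cytochrome c carries them to complex IV, and the proton gradient built on the way drives ATP synthesis by complex V. Some core subunits are encoded in mitochondrial DNA and all others in the nucleus, and several subunits of complex IV exist as a broadly expressed form and a form restricted to muscle, testis or lung. Erythroblasts hold mitochondria, where the first and last steps of heme synthesis take place, and red cells lose them at the end of their maturation.

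The assay was ATAC-seq, where a transposase cuts and tags DNA that is accessible in chromatin. The series holds 1 group of 2 biological replicates, each from 50000 primary erythroblasts of C57BL/6J males 5 to 6 weeks old, with no treatment or altered allele named in the labels. Each replicate has a biosample of its own, but both carry 1 donor identifier, so the spread between them may be partly technical. The label of replicate 2 names 2 sequencing instruments and that of replicate 1 names none, so instrument and replicate cannot be told apart.

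The files are peak lists in mm10 coordinates, with no read counts, so depth is unknown. The thresholded list, cut on the irreproducible discovery rate (IDR), held 17766 intervals in replicate 1 and 18826 in replicate 2 on these chromosomes, and the less strict list 31810 and 33534. A gene was called open when the thresholded list of each replicate had an interval within 1 kb of any of its annotated start sites. Closed means here that no such interval passed the threshold. Of 10 erythroblast marker genes, 10 were open, among them Gata1, Klf1 and Hba-a1. None of 6 B cell, 5 T cell, 8 granulocyte and monocyte, 5 macrophage or 5 brown fat markers was open. Open promoters were found for 3 of 6 megakaryocyte markers, 1 of 10 muscle markers (Ckm) and 1 of 10 testis germ cell markers (Dazl).

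Sequences just upstream of the start sites are shown for the 3 subunits of complex IV that have a broad and a muscle form, which differ in CpG content. Printed here, 5′ to 3′ on the strand of the gene from the GRCm38 sequence of RefSeq, are up to 150 bases that end at the base before the representative start, cut short where an annotated exon begins, with each CG dinucleotide in capitals. The first gene of each pair has the broadly expressed form and the second the form of heart and skeletal muscle. Cox6a1 lies at chr5:115348982-115349129, minus strand, and Cox6a2 at chr7:128206388-128206537, minus strand. Cox7a2 lies at chr9:79759879-79760028, minus strand, and Cox7a1 at chr7:30183994-30184143, plus strand. Cox8a lies at chr19:7217617-7217766, minus strand, and Cox8b at chr7:140900447-140900596, minus strand.
Cox6a1: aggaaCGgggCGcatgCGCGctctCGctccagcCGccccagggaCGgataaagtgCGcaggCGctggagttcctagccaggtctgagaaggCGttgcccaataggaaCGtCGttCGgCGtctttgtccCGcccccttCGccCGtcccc
Cox6a2: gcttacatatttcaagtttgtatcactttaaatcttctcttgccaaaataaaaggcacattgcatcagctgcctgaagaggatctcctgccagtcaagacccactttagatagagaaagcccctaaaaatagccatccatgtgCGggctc
Cox7a2: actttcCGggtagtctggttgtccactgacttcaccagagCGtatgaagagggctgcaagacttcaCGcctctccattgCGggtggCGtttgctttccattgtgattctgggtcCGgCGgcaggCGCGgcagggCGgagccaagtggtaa
Cox7a1: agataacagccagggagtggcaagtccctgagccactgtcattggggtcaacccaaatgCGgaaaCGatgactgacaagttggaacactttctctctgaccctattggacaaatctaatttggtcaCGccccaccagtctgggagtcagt
Cox8a: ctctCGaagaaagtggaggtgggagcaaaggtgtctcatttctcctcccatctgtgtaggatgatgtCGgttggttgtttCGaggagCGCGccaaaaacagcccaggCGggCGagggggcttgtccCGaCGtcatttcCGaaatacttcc
Cox8b: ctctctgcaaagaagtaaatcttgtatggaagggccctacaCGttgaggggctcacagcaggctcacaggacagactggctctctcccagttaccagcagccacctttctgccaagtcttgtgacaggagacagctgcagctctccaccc
The broad forms hold 17, 10 and 10 CG dinucleotides in these stretches, and the muscle forms hold 1, 3 and 1. All 3 broad forms were open in both replicates. Of the muscle forms, Cox7a1 alone was open.

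Nearly the whole set had open promoters in erythroblasts. Of the 94 records, 86 were open in both replicates (91.5%, 95% Wilson interval 84.1% to 95.6%, counting error only), against 9080 of 21755 protein-coding genes (41.7%). Replicate 1 alone had 87 members open and replicate 2 had 86, and all 86 were open in each. In the less strict lists 87 members were open in both replicates, against 47.0% of protein-coding genes. Among the subunit genes other than the tissue-restricted isoforms, 75 of 76 were open (98.7%). The 8 members not open were 6 tissue-restricted forms, the complex I gene Ndufs4, and the read-through record named Atp5o. That record starts 4705 bp downstream of the start of Atp5o itself, and its nearest interval lay 4367 bp and 4466 bp away. Atp5o itself, the stalk subunit that ties the head of ATP synthase to its stator, was open.

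The strength of each open promoter was described by the authors' enrichment at its strongest summit, a fold over background that is comparable within a list. In bulk libraries, a site open in fewer cells and a site less open in each cell cannot be told apart. The median of the 86 open members was 11.3 in the first replicate and 11.4 in the second (mean 11.3 ± 0.112, SD, n = 2). All 9080 open genes had medians of 9.73 and 9.86. On a scale from 0 for the weakest open gene of a list to 100 for the strongest, the median member stood at 69.7 in replicate 1 and 70.5 in replicate 2. In each replicate 61 of 86 open members stood above 50 on that scale, which ranks all genes open in that list. Above 75 on that scale stood 35 members in replicate 1 and 33 in replicate 2, and below 25 stood 9 and 8. The members were thus shifted toward stronger promoters, with a tail of weak ones in both lists.

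**Figure D1:**
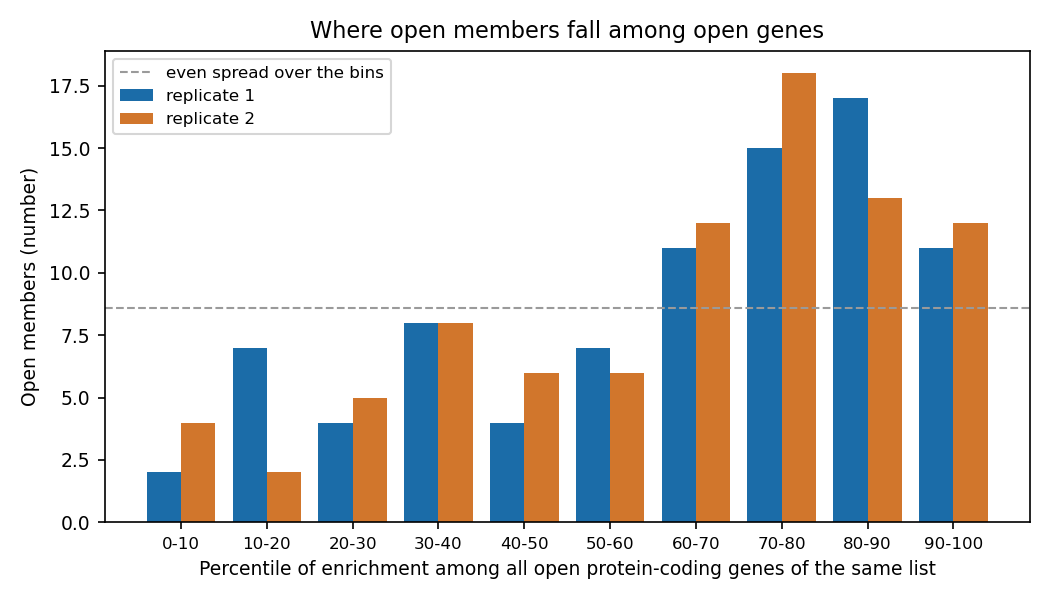
Number of open members (vertical axis) in each of 10 equal bins of the enrichment scale of all open protein-coding genes (horizontal axis, percentile within each list), for replicate 1 and replicate 2, with a dashed line where an even spread of the 86 members would fall. The bins from 60 upward hold more members than the line in both replicates, and those below 60 hold fewer.

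Complex I, the NADH dehydrogenase, had 35 of 36 members open. All 7 core subunits, which carry the flavin and iron-sulfur centers, were open, as were 28 of 29 accessory subunits. Open members of complex I had a median enrichment of 11.2 in each replicate. The strongest was Ndufb3, an accessory subunit of the membrane arm, with 15.5 in replicate 1 and 15.2 in replicate 2. Its interval in replicate 1 spans chr1:58586105-58586901, over the representative start. Ndufb6, another membrane-arm subunit, had 14.03 and 14.3. Ndufs3, a core subunit of the arm that reaches into the matrix, had 14.02 and 13.99. The weakest open member was Ndufb7, an accessory subunit of the membrane arm, with 6.19 and 6.69, which is lower in both lists than the median of open genes.

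Ndufs4, an accessory subunit of the matrix arm whose loss causes Leigh syndrome in people and a similar disease in mice, was the one member with an interval in a single replicate. Its promoter had an enrichment of 11.6 in the thresholded list of replicate 1, at chr13:114387414-114388216, and no interval in that of replicate 2. The less strict list of replicate 2 held it with an enrichment of 9.30. In the ranked list of replicate 2 its global IDR was 0.137, where the highest value kept in the thresholded list was 0.05, while in replicate 1 it was 0.00732. The strongest summit is also given for 2 subsets of the reads of a replicate: its −log10 p was 30.0 and 6.53 in those of replicate 2, against 19.3 and 24.8 in those of replicate 1. The thresholded list made from both replicates held it with an enrichment of 11.9. The call for Ndufs4 thus turns on the threshold of a single list.

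Complex II, succinate dehydrogenase, had all 4 members open, with the highest median of the complexes, 13.1 in replicate 1 and 12.9 in replicate 2. Sdha, the flavoprotein that oxidizes succinate, had 14.6 in each replicate. Sdhc and Sdhd anchor the enzyme in the membrane. Sdhc had 13.4 and 13.6, and Sdhd had 12.9 and 12.1. Sdhb, the iron-sulfur subunit, was the lowest of the 4 with 8.76 and 9.63. The values of Sdhb lay under the lists' medians for open genes, and those of the other 3 above.

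Complex III, the cytochrome bc1 complex, had all 8 members open, with medians of 11.8 and 11.4. Uqcrc2, a core subunit, was the strongest with 14.2 and 14.3. Uqcrb, an accessory subunit, had 13.1 and 12.7. Uqcr10, a small accessory subunit, had 11.8 in each. Uqcrfs1, the Rieske iron-sulfur protein, had 11.96 and 11.2. Uqcrh, the hinge protein that helps cytochrome c dock, was the weakest with 7.73 and 7.87.

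Complex V, the ATP synthase, had all 16 members open, with medians of 10.8 and 11.3. The 5 genes of the F1 head and central stalk spanned the whole range. Atp5e, the epsilon subunit of the central stalk, had 15.2 and 15.8. Atp5d, the delta subunit next to it in that stalk, had 5.57 and 5.62, the lowest of complex V in both replicates. The alpha subunit gene Atp5a1 had 9.92 and 9.85, and the beta subunit gene Atp5b, which carries the catalytic sites, had 9.997 and 9.37. Both stood close to the median of open genes. Atp5g1, Atp5g2 and Atp5g3 encode the same mature subunit of the rotor ring, and all 3 were open: Atp5g1 had 10.97 in each replicate, Atp5g2 had 11.4 in each, and Atp5g3 had 10.5 and 11.5. Among the 8 genes of the outer stalk and membrane part, Atp5o was the strongest with 12.9 and 13.01, followed by Atp5mpl, a small membrane protein, with 11.5 and 12.1.

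All 9 assembly and coupling genes were open, with medians of 11.3 and 11.5. Ndufaf4, needed to build complex I, had 14.9 in each replicate. Ndufaf7, a methyltransferase needed to build complex I, had 14.03 and 14.4, and Ndufaf6, another complex I assembly factor, had 12.7 and 12.5. Ndufaf3, which works with Ndufaf4, was the weakest with 6.39 and 6.08. The SD of the replicates' values had a largest value of 1.39 over the 86 open members, for Ndufc2, so the gap between the strong and weak members of each complex was wider than that spread.

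**Figure D2:**
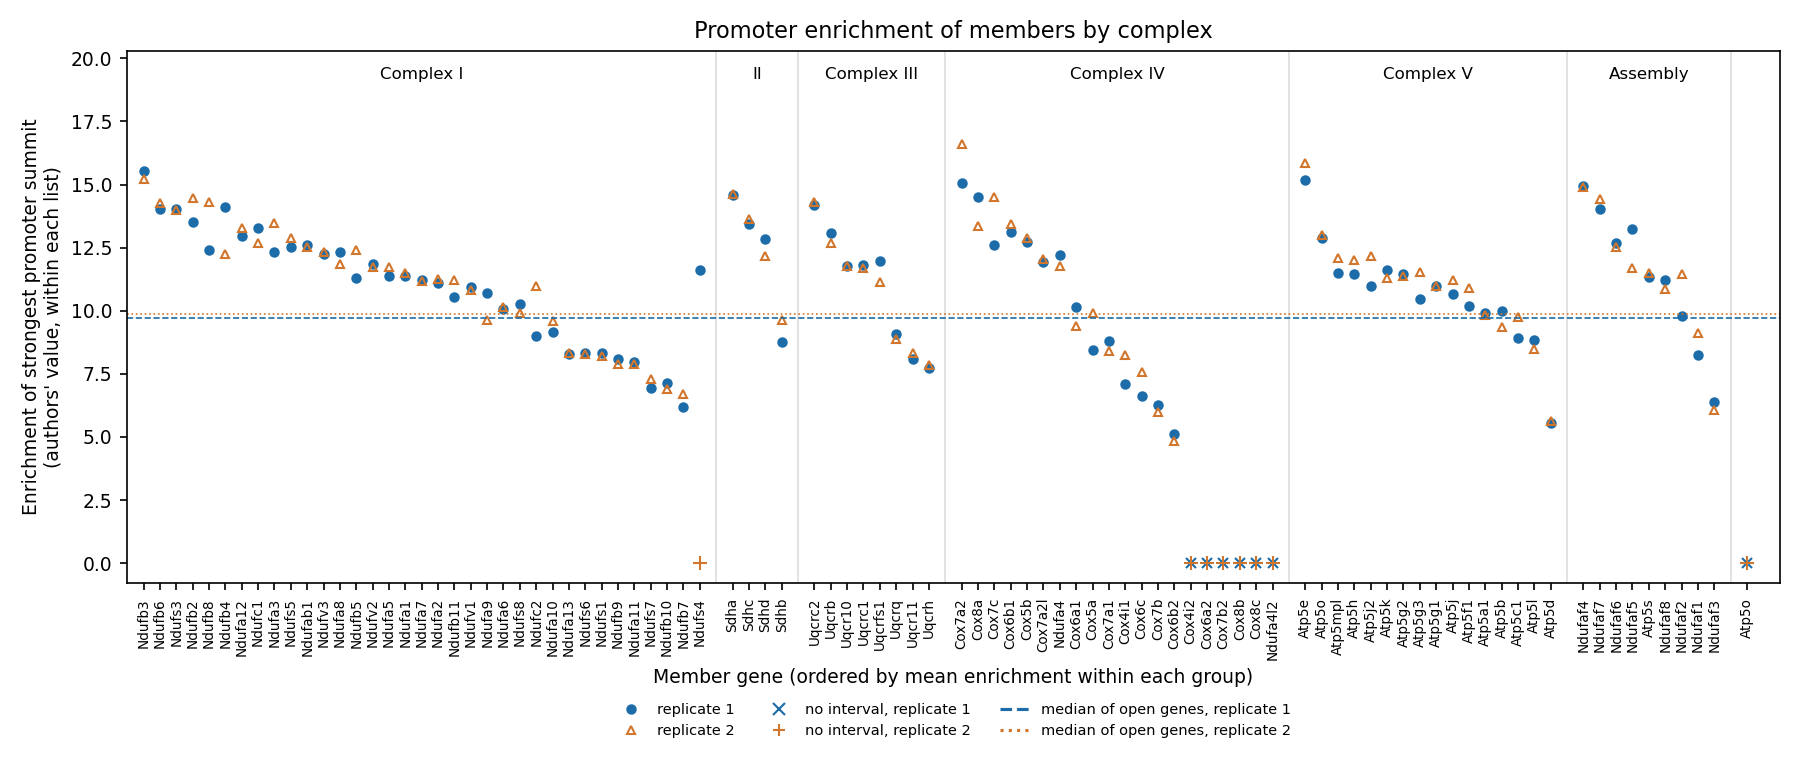
Enrichment of the strongest promoter summit (vertical axis, authors' value within each list) of the members (horizontal axis, 1 open member of complex I not drawn), grouped by complex, with filled circles for replicate 1, open triangles for replicate 2 and crosses at 0 where a replicate's thresholded list has no interval. The crosses in both replicates fall on 6 genes of complex IV and the read-through record, Ndufs4 lacks an interval in replicate 2, and the dashed and dotted lines give the medians of all open genes, 9.73 and 9.86.

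Complex IV, cytochrome c oxidase, was the complex with closed promoters in both replicates. Of its 20 members, 14 were open (70%), with medians of 11.1 and 10.8. Cox7a2, the broad form of subunit VIIa, was the strongest promoter of the whole set in replicate 2, with 15.1 and 16.6, at chr9:79759346-79760495 in replicate 1. Cox8a, the broad form of subunit VIII, had 14.5 and 13.3. Cox7c, which has no isoform partner among the members, had 12.6 and 14.5. Cox7a2l, a factor that joins complexes III and IV into supercomplexes, had 11.95 and 12.1. Ndufa4, once placed in complex I and now counted as a subunit of complex IV, had 12.2 and 11.8.

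The 6 closed members of complex IV are forms tied to certain tissues or to low oxygen, while each of the broad partners was open. Of the 8 restricted forms 2 were open (25%), and of the 7 broad partners 7 were open. Cox4i1 had 7.08 and 8.26, and Cox4i2, the form of lung and of cells in low oxygen, had no interval. Cox6a1 had 10.2 and 9.39, and its muscle form Cox6a2 had none. Cox8a was open, as given above, and neither Cox8b of muscle nor Cox8c of testis had an interval. Cox7b had 6.26 and 5.99, and its testis form Cox7b2 had none. Ndufa4 was open, and its paralog Ndufa4l2, which is induced by low oxygen in many cells, had none. No restricted form gained an interval in the less strict lists.

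The closed forms differed in how near an open site lay. The nearest interval to the representative start of Cox7b2 was 619325 bp away in replicate 1 and 619054 bp in replicate 2. For Cox8c the distances were 20423 bp and 20438 bp, for Cox4i2 12259 bp and 13394 bp, and for Cox8b 8085 bp and 8083 bp. Cox6a2 had its nearest interval 30750 bp away in replicate 1 and 1888 bp away in replicate 2. Ndufa4l2 lay just outside the limit, with an interval 1706 bp and 1713 bp away and an enrichment of 7.75 and 7.42, and with a limit of 2 kb it counted as open. The other closed forms stayed closed at 2 kb.

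The 2 restricted forms with open promoters were Cox7a1 of heart and skeletal muscle and Cox6b2 of testis. Cox7a1 had an enrichment of 8.80 and 8.42, below the median of open genes in both lists, with its summit 24 and 22 bases from a start site, at chr7:30183923-30184535 in replicate 1. Its partner Cox7a2 was stronger in both lists. Cox6b2 had 5.13 and 4.86, which placed it at 3.64 and 2.87 on the scale of open genes, the weakest open promoter among all members. Its summit lay 483 bases downstream of the representative start in both replicates and 83 bases from another annotated start, and the interval of replicate 1 did not reach the representative start. Its partner Cox6b1 had 13.1 and 13.5. Muscle and testis markers were closed apart from Ckm, with 5.85 and 6.47, and Dazl, with 16.3 and 18.2, and a link to those promoters was not tested. A further setting kept only peaks above the median enrichment of their whole list, a lower mark than the median of open genes. With these peaks, Cox7a1 was open and Cox6b2 was not, and of the broad partners 5 of 7 were open, without Cox4i1 and Cox7b.

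**Figure D3:**
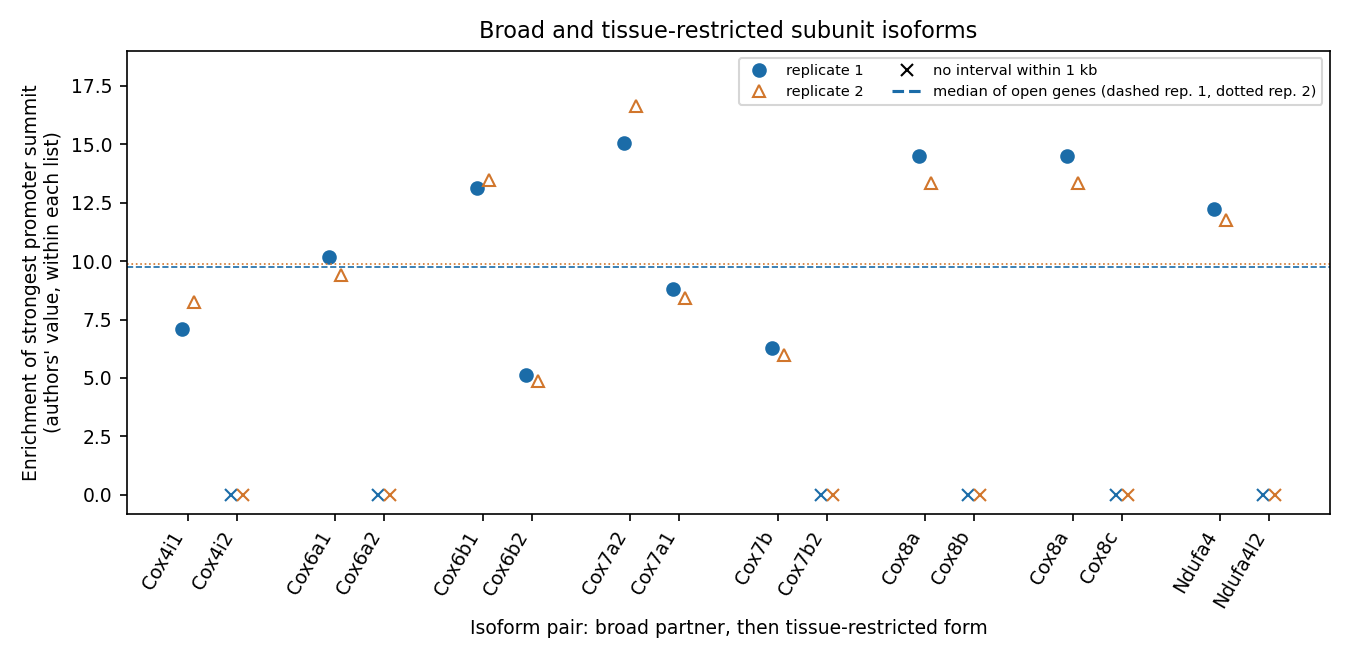
Enrichment of the strongest promoter summit (vertical axis, authors' value within each list) of each broad subunit gene and its tissue-restricted form (horizontal axis, side by side), with circles for replicate 1, triangles for replicate 2 and crosses at 0 for no interval within 1 kb. Cox8a is drawn 2 times because it has 2 restricted forms, Cox8b and Cox8c. Cox6b2 and Cox7a1 are the restricted forms with values, and both lie under the partner's value in each replicate.

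The open members had wide intervals centered on the start site. The median width was 988 bp in replicate 1 and 1018 bp in replicate 2, against 897 bp and 888 bp over all open genes. More than 1 summit was listed for 79 and 81 of the 86 open members (91.9% and 94.2%), against 79.7% and 78.2% of open genes. The strongest summit lay within 100 bases of an annotated start in 72 and 74 members (83.7% and 86.0%), against 68.8% and 68.7% of open genes. The median distance was 29 bases and 28.5 bases, against 56 and 57. Ndufa13, a small subunit of complex I, was the member with its strongest summit farthest from a start, 884 bases in each replicate, in an interval shared with the starts of Tssk6 and Yjefn3. Ndufa11 followed with 702 and 699 bases, in an interval shared with Vmac. For Ndufa13 another, weaker interval lay nearer to the representative start, 176 bp away in replicate 1 and 471 bp in replicate 2.

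CpG content was low at every promoter that was closed in both replicates. The ratio of observed to expected CpG within 500 bases of the representative start had a median of 0.719 over the 94 members, 0.575 over all protein-coding genes, 0.734 over open members and 0.755 over open genes. When all genes were ranked into 10 equal groups by this ratio, 79 members fell into the upper 5 groups and 78 of these were open, against 68.4% of all genes there. The exception was Ndufs4. In the lower 5 groups 8 of 15 members were open, against 15.1% of all genes there. All 7 of the members closed in both replicates were in the lower 5 groups, with ratios from 0.186 for Ndufa4l2 to 0.467 for Cox7b2. The ratio did not separate every isoform pair: Cox7b, the open partner of Cox7b2, had 0.482, and Cox6b2, an open restricted form, had 0.433. The median standing on the enrichment scale of open genes in the upper 5 groups was 71.2 for members and 53.2 for all genes.

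Members with little CpG at the representative start and an open promoter were Atp5j2, Cox7a1, Cox6b2, Atp5f1, Cox7b, Ndufa3, Ndufb10 and Ndufs8, with ratios from 0.220 for Atp5j2 to 0.572 for Ndufs8. Atp5j2, a subunit of the membrane part of ATP synthase, had an enrichment of 10.98 and 12.2, but its summit lay 492 and 493 bases downstream of the representative start and 22 and 23 bases from another annotated start. Atp5f1, a subunit of the outer stalk, was alike, with the summit 666 and 663 bases downstream. In these genes the CpG ratio describes a stretch beside the open site. Cox7a1 had its summit at the representative start, and its ratio was 0.278.

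**Figure D4:**
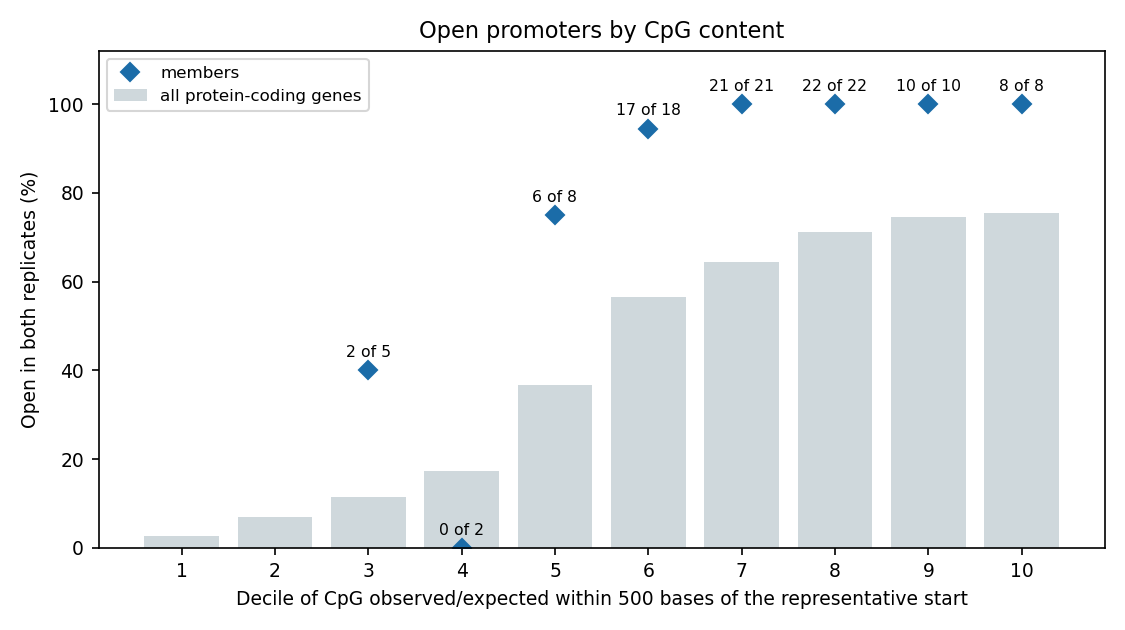
Share of genes open in both replicates (vertical axis, percent) in 10 equal groups of genes by the ratio of observed to expected CpG around the start (horizontal axis, 1 lowest), as bars for all protein-coding genes and diamonds for members, with the number of open members of the members in that group. The diamonds reach 40 of 40 in groups 8 to 10, where 73.7% of all genes were open.

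Many members shared their open site with a neighboring gene. Of the 86 open members, 35 (40.7%) had an interval that also lay within 1 kb of a start of another protein-coding gene, against 26.5% of open genes. A divergent partner, a gene on the other strand that starts within 1 kb upstream, was found for 23 of the 94 members. All 23 were open, as were 1382 of the 1526 protein-coding genes with such a partner. The 23 are 26.7% of open members, and the 1382 are 15.2% of open genes. Counts of divergent partners were 10 of 36 in complex I, 3 of 4 in complex II, 2 of 8 in complex III, 1 of 20 in complex IV, 2 of 16 in complex V and 5 of 9 among the assembly genes. An interval over a shared promoter cannot be assigned to either gene, so the enrichment of these members belongs to the pair.

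Among the divergent pairs with the strongest promoters were Ndufb3 with Fam126b, Sdha with Ccdc127, Ndufaf7 with Cebpz and Sdhd with Timm8b, whose starts lie 61, 29, 70 and 98 bases apart. Timm8b encodes a chaperone of mitochondrial import and Cebpz a nucleolar protein. Other neighbors act in protein synthesis: Ndufa7 shares its interval with Rps28, a protein of the cytosolic ribosome, Ndufs1 with Eef1b2, a translation elongation factor, and Ndufs6 and Ndufb5 with Mrpl36 and Mrpl47, proteins of the mitochondrial ribosome. Atp5j, a stalk subunit of ATP synthase, shares its interval with Gabpa, which encodes the DNA-binding subunit of an ETS factor known for binding promoters of respiratory genes. These neighbors were named after the pairs were seen.

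Promoter sequences were searched for short motifs of factors known in respiratory gene control and in erythroid cells. The strands were both read, from 250 bases before to 50 after the representative start, and a match describes letters in a window, not binding. Shown here are the stretches upstream of 4 members, with matches to the NRF1, ETS, YY1 and ERR motifs in capitals, chosen after the matches were seen as examples close to the start. Sdha at chr13:74350281-74350308, minus strand and Sdhd at chr9:50603813-50603909, minus strand are the whole gaps to their divergent partners. Atp5h lies at chr11:115419963-115420112, minus strand, and Atp5g3 at chr2:73911327-73911476, minus strand.
Sdha: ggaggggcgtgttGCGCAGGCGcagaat
Sdhd: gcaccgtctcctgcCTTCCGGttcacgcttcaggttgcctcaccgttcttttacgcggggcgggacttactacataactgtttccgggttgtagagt
Atp5h: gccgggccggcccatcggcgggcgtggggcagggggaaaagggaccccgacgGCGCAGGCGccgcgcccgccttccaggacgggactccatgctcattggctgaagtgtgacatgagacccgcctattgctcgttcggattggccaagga
Atp5g3: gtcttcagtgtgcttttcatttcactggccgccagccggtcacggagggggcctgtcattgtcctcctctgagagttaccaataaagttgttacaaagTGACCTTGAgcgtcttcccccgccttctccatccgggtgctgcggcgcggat
Sdha and Atp5h carry the NRF1 letters GCGCAGGCG, Sdhd the ETS letters CTTCCGG on the strand shown, and Atp5g3 the ERR letters TGACCTTGA. The ERR match in Atp5g3 lies from 52 to 44 bases before the start, and the NRF1 match in Sdha from 15 to 7 bases before.

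The motif NRF1 (GCGCANGCG), of a factor that controls many respiratory genes, matched in 17 of 94 members (18.1%), against 8.34% of all protein-coding genes and 15.8% of open genes. All 17 were open, beside 86 of all 94 members and 1433 of the 1815 protein-coding genes with an NRF1 match. By complex, 6 of 16 members of complex V held it, 4 of 36 of complex I, 2 of 4 of complex II, 2 of 8 of complex III, 1 of 20 of complex IV and 2 of 9 assembly genes. Within 75 bases of the strongest summit, it matched in 23.3% and 22.1% of open members in the replicates, against 12.02% and 11.9% of open genes. The ETS motif (CCGGAAG) also matched in 17 members (18.1% of members and 19.8% of open members). Both shares were under the 21.7% of open genes and above the 11.3% of all genes. Within 75 bases of the strongest summit the order was the other way, with 22.1% and 23.3% of open members against 18.2% and 18.4% of open genes. Both motifs together were found in Atp5h, Atp5l, Cox6a1, Sdhd and Uqcr11.

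YY1 (ANATGGCGG) matched in 9 members (9.57%), against 4.90% of open genes and 2.43% of all genes, among them Ndufs7, Sdhd and Atp5h. The ERR motif (TCAAGGTCA), of estrogen-related receptors, matched in 2 members, Atp5g3 and Sdhd (2.13%), against 0.297% of open genes and 0.395% of all genes. Within 500 bases on either side of the start it matched in 9 members (9.57%), against 1.55% of open genes. The SP/KLF motif (GGGCGG) went the other way, with 39 members (41.5%) against 66.1% of open genes and 45.7% of all genes. Within 75 bases of the strongest summit it matched in 36.0% of open members in each replicate, against 58.9% and 58.5% of open genes.

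Of the remaining motifs, NFY (CCAAT) matched in 37.2% of members, 41.7% of open genes and 38.4% of all genes. The E-box (CACGTG) matched in 8.51%, 10.6% and 7.78%, and CRE (TGACGTCA) in 4.26%, 3.84% and 2.52%. The GATA motif (AGATAA) matched in 9.57% of members, above the 6.15% of open genes and near the 9.77% of all genes. ZNF143 (ACTACAA) matched in 8.51% of members, 5.02% of open genes and 3.80% of all genes. The TATA box (TATAAA) matched in 11.7% of members, 6.71% of open genes and 12.6% of all genes. Among open members alone GATA matched in 10.5% and TATA in 9.30%. No motif's letters contain those of another. GATA, the motif of the factor family that drives erythroid genes, matched within 75 bases of the summit in 2.33% of open members in each replicate, against 3.35% and 3.38% of open genes. Atp5g1 and Cox7c were the 2 members with such a match.

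**Figure D5:**
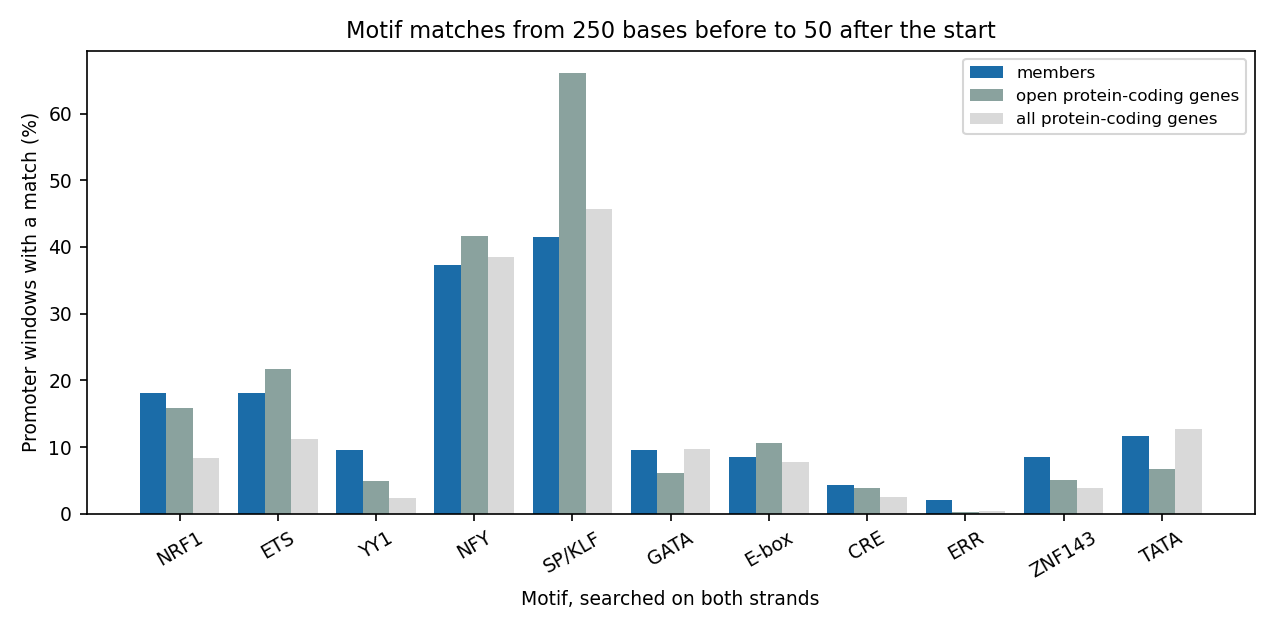
Share of promoter windows with a match (vertical axis, percent) for 11 motifs searched on both strands (horizontal axis), in bars for the 94 members, for all open protein-coding genes and for all protein-coding genes. The bar of members is higher than that of open genes for NRF1, YY1, GATA, CRE, ERR, ZNF143 and TATA, and lower for ETS, NFY, the E-box and SP/KLF, the last at 41.5% against 66.1%. Against all genes, the bar of members is lower for GATA, TATA, NFY and SP/KLF.

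Open sites away from promoters were fewer near the members than near open genes as a whole. Sites over 1 kb from any annotated start, found in both replicates, were counted within 50 kb of the representative start. The count took in all 94 members, 8 of them not open. Members had a mean of 0.745 such sites, against 0.937 for open genes and 0.586 for all protein-coding genes. None was found for 53 of 94 members (56.4%), against 53.1% of open genes and 69.8% of all genes. Atp5s and Ndufb9 had most, with 5 each, and Uqcr11 had 4. The strongest of those near Ndufb9, an accessory subunit of complex I, had an enrichment of 12.4 and 13.5 and lay upstream of its start, inside Tatdn1. Cox4i2 had 3 such sites with its own promoter closed, and 1 of them lay inside Bcl2l1, a gene for a survival factor of erythroid cells. Which gene a distal site acts on was not tested.

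Other genes of the pathway, which the naming rule does not take in, were open about as often. Of 74 such genes matched in the annotation, 67 were open (90.5%), against 41.7% of all protein-coding genes. All 21 assembly genes of complex IV were open, among them Sco1, which delivers copper, with 13.99 and 14.4, and Coa7 with 13.3 and 13.6. All 7 further genes of complex III were open, including its cytochrome c1 gene Cyc1 with 9.40 and 11.05. Lyrm7, which hands over the Rieske protein, was the strongest of them with 13.1 and 12.9, followed by Uqcc3 with 12.5 and 12.9. Of the complex I assembly genes 8 of 9 were open, led by Ecsit with 15.7 and 15.1 and Tmem126b with 13.8 and 14.2. Nubpl, which supplies iron-sulfur clusters to complex I, had an interval in each less strict list but in neither thresholded one.

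Coenzyme Q synthesis had 12 of 13 genes open. Pdss2, a subunit of the enzyme that makes the side chain, had 18.4 and 16.6, higher in replicate 1 than any member's value, and Coq8a had 15.5 and 15.1. Coq3, a methyltransferase of the ring, was open in replicate 1 with 7.14 and in the less strict list of replicate 2. Complex II assembly had 3 of 4 open, with Sdhaf3 at 14.4 and 13.6 and Sdhaf4 at 13.6 and 13.3. Sdhaf1 had no interval in either kind of list. Complex V assembly and inhibition also had 3 of 4 open. Tmem70 had 13.9 and 14.9 and Atpaf2 had 9.63 and 9.74, and Atpaf1 was open in the less strict lists alone.

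Of the 2 genes of the electron carrier cytochrome c, 1 was open. Cycs, the somatic gene, had 12.5 and 12.9. Cyct, the testis gene, had no interval in either kind of list. Among 14 regulators 12 were open, with Tfam, which packs and transcribes mitochondrial DNA, at 12.8 and 12.7 and Polrmt, the mitochondrial RNA polymerase, at 12.3 and 12.2. Nrf1 had 9.90 and 8.44, Yy1 8.01 and 7.85, and Esrra, which encodes an estrogen-related receptor, 9.65 and 10.2. The coactivator genes Ppargc1a and Ppargc1b, known as drivers of mitochondrial growth in muscle and brown fat, were not open. Ppargc1b had an interval in each less strict list, and Ppargc1a had none. Their relative Pprc1 had 11.4 and 11.9.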

How the data were processed

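The authors deposited ATAC-seq peak lists of 2 replicates, thresholded on IDR, pseudoreplicated (called less strict here) or ranked by IDR, and lists made from both. The deposited enrichment is a fold, a linear ratio of each summit over background, and the deposited significance is −log10 p, or −log10 of the global IDR in the ranked lists. Coordinates are mm10, per the labels. Aligner and peak caller: not given in the sources used here. Depth is unknown, since no list holds read counts.

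Lines with the same ends were joined into 1 interval. Start sites came from GENCODE M21 and sequence from GRCm38.p6, read with pysam 0.24.0 and pandas 2.3.3. The representative start is that of the protein-coding transcript ranked by APPRIS, CCDS and support level. A divergent partner is on the other strand, with its representative start within 1 kb upstream. Calls and motif searches were checked on simulated data. With 1 group no test was run, and counts stand beside the share over all protein-coding genes. Alternatives for start sites, width, peak list, strictness, motif window and distal range were run.

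Named are every member not open, the 3 strongest and the weakest open member of each complex, each restricted isoform and its partner, the 5 strongest divergent pairs (of which 1 is not reported here), the 3 members with most distal sites, those whose sequence is shown, and, of 8 pathway lists, every gene not open and the 2 strongest. Others were named after their values were seen. The members, lists, markers and motifs were chosen with earlier results of these data known. Coa1 was not matched by symbol.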

Additional observations from a re-analysis of the deposited data

How the results depend on the processing

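The count of 86 open members was 83 with the outermost start of each gene alone, which lost Atp5d and Cox7a2l among others, and 87 at 2 kb, which added Ndufa4l2. It was 87 in the less strict lists, in the thresholded list of both replicates and in the conservative list, each of which added Ndufs4, and from 86 to 87 when a replicate was left out. With peaks above the median enrichment of their list, 76 members were open against 30.3% of all protein-coding genes, with 10 in place of 14 in complex IV, 5 in place of 7 broad isoforms and 1 in place of 2 restricted ones. Within 500 bases either side of the start, NRF1 matched in 28 members (29.8%), ETS in 30 (31.9%) and YY1 in 21 (22.3%), against 23.6%, 34.8% and 10.7% of open genes and 12.9%, 19.6% and 5.34% of all genes. The mean number of distal sites per member was 1.53 within 100 kb and 1.54 in the less strict lists, and open genes had means of 1.72 and 1.85. No paired analysis was possible because the series has 1 group. With 2 replicates, peak lists without read counts and 1 cell type, a promoter without an interval is not shown to be closed, and whether openness is particular to erythroblasts was not tested.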

Other observations

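Enrichment of open members with and without a motif or a divergent partner is given as values, with no test. The 17 open members with an NRF1 match had a median enrichment of 11.6 in replicate 1 and 11.7 in replicate 2, against 10.98 and 11.2 for the other 69. The 17 with an ETS match had 10.3 and 9.91, against 11.3 and 11.5 for the rest, while over all open genes those with an ETS match had the higher medians, 10.4 and 10.6 against 9.51 and 9.68. The 8 with a TATA match had 9.91 and 9.83, against 11.3 and 11.5 for the other 78. The 33 with an NFY match had 10.5 and 10.97, against 11.5 and 11.7 for the other 53. Over all open genes those with an NFY match had the higher medians, 10.2 and 10.3 against 9.43 and 9.56. The 23 with a divergent partner had 11.3 and 11.5, against 10.98 and 11.3 for the other 63.

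The marker promoters of the erythroblasts were weaker on the same scale than most of the oxidative phosphorylation genes. Hba-a1, an alpha globin gene, had an enrichment of 3.28 and 3.37, Tal1, an erythroid transcription factor gene, 3.33 and 3.49, and Slc4a1, the red cell anion exchanger, 3.43 and 3.81. The weakest open member, Cox6b2, had 5.13 and 4.86.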
